A study of Mus musculus with 24 samples.

Results

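Expression of 8 genes of cholesterol synthesis, its sterol control and lipoprotein uptake was followed across all 24 libraries of a mouse kidney study. The genes, taken by symbol from the 14407 genes of the deposited table, were Hmgcs1, Idi1, Fdps, Sqle and Lss (enzymes), Insig1 and Srebf2 (control) and Vldlr (a receptor), and all 8 were found once and passed the filter on low values. RNA came from the left kidney of wildtype mice that had undergone sham surgery or UUO (unilateral ureteral obstruction), in which the ureter of 1 kidney is closed. Each surgery was combined with vehicle or with istradefylline, an adenosine receptor antagonist, given as an early or as a late intervention. Each of the 6 groups, named by surgery and then by vehicle, early or late, had 4 libraries. Strain, age, sex, dose and the days of either course are not given in the labels. Whether each library is a mouse of its own is not stated either, and p-values then measure the spread between these libraries, which may be technical.

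Animal cells make cholesterol from acetyl-CoA through mevalonate, farnesyl pyrophosphate, squalene and lanosterol. When sterols in the endoplasmic reticulum are low, the escort protein SCAP carries SREBP2, the product of Srebf2, to the Golgi, where proteases release a transcription factor that switches on the enzymes of the pathway. When sterols are plentiful, INSIG1 holds the SCAP complex back, and cells can also obtain cholesterol and fatty acids from lipoproteins through cell surface receptors, of which VLDLR is one.

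SREBP binds sterol regulatory elements, usually beside NF-Y boxes, so the 250 bases before the annotated starts were searched for these letters on both strands. Promoters of 6 of the 8 genes were found in RefSeq (GRCm38.p6), in 7 windows. The motifs were the sterol regulatory element TCACNCCAC, the E-box CACGTG, the NF-Y box CCAAT and the GC box GGGCGG. Among all 32851 windows of this length, 1.05% held the first, 6.02% the E-box, 33.8% the NF-Y box and 32.7% the GC box. The promoters below, all on the plus strand, are those of the enzyme and control genes that were lower in at least 2 of the 3 comparisons of UUO with sham (Hmgcs1, Idi1, Insig1), and that of Srebf2, which was higher in all 3. Capitals mark sterol regulatory elements, E-boxes and NF-Y boxes on either strand, the last reading ATTGG here. GC boxes, which were counted too, are left in lower case.
Hmgcs1, chr13:119690101-119690350: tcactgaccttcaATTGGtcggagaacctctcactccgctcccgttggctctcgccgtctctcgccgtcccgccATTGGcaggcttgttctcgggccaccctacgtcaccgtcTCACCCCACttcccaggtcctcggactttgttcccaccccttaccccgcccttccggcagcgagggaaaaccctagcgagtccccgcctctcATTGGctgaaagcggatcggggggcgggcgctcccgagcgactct
Idi1, chr13:8885356-8885605: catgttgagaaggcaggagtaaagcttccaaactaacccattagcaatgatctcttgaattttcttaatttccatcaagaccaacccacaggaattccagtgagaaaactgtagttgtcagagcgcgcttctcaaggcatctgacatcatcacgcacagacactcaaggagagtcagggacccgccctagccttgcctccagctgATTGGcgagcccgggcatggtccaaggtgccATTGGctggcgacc
Insig1, chr5:28071162-28071411: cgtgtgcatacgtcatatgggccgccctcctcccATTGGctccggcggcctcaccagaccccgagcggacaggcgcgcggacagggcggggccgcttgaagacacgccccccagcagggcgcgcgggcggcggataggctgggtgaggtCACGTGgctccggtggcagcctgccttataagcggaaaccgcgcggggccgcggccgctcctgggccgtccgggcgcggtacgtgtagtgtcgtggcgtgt
Srebf2, chr15:82147019-82147268: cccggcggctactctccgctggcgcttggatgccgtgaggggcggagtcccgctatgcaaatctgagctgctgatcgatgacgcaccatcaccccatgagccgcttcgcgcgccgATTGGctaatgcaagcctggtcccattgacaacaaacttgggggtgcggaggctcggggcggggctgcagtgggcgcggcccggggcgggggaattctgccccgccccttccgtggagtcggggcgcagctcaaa

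Hmgcs1 was the 1 gene of the 6 with a sterol regulatory element of this spelling, 137 bases before the start, between NF-Y boxes that begin 176 and 45 bases before it; a further NF-Y box begins at 237 bases. Idi1 held 2 NF-Y boxes, at 45 and 14 bases before its start. The single E-box of the 6 genes, at 101 bases, was in Insig1, beside 1 NF-Y box at 216 bases. Srebf2 held 1 NF-Y box and 4 GC boxes, Lss 1 NF-Y box, and Vldlr 1 NF-Y box in 1 of its 2 windows. Of the 21 genes listed for cholesterol synthesis, 16 had a window, of which 15 held an NF-Y box and 1, Hmgcs1, the sterol regulatory element. A match is a string of letters and not a measured site.

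Gene levels are deposited as FPKM, fragment numbers scaled by transcript length and library depth. Library depth, estimated from the smallest steps of the transcript values, ranged from 7740000 to 12900000 fragments. At this depth Hmgcs1 rested on an estimated 1382 to 6602 fragments in a library, Sqle on 352 to 1098, Vldlr on 299 to 1127, Idi1 on 132 to 848 and Lss on 56 to 272, so Lss is the least precisely measured. A pair of libraries was treated as standing apart from their groups. UUO early replicate 4 had a summed level of 8 skeletal muscle genes of 4007 FPKM, where the other UUO early libraries had 3.26 to 198 FPKM, and the lowest sum of 10 proximal tubule genes of all libraries, 195 FPKM. Sham vehicle replicate 2 had the lowest proximal tubule sum of the sham libraries, 2319 FPKM, and a neutrophil sum of 12.5 FPKM against at most 2.35 FPKM in other sham libraries. UUO late replicate 4 also differed from its group, but was not treated in this way. Its proximal tubule sum was 306 FPKM, against 721 to 1028 FPKM in the other UUO late libraries. Its neutrophil sum was 171 FPKM, against 31.2 to 53.7 FPKM in them.

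After obstruction Fdps and Srebf2 were higher and Hmgcs1 and Idi1 lower in all 3 comparisons with sham. With median-of-ratios scaling, however, Srebf2 was called in none of the 3, and its early difference was -0.0069. Values were compared on the log2(FPKM + 1) scale with limma over 13127 genes, with Benjamini-Hochberg adjustment and a threshold of 0.05, and "rose" and "fell" are used only past it. In UUO vehicle against sham vehicle, Fdps and Srebf2 rose and Hmgcs1, Idi1, Insig1 and Vldlr fell, 2 higher and 4 lower of 8, where 50.3% of all tested genes were higher and 16.7% lower. In UUO early against sham early 2 were higher and 3 lower, against 54.7% and 17.3% of all genes, and in UUO late against sham late again 2 and 3, against 59% and 16.5%. The median difference of the 8 genes was -0.27, -0.14 and -0.13 in these comparisons, while that of all tested genes was 0.32, 0.40 and 0.49. A difference near those medians is that of the typical gene. The shares of all genes whose UUO and sham libraries do not overlap are not given here. Lack of overlap, given below for single genes, can thus not be read as particular to them. With median-of-ratios scaling, which centres the typical gene near 0, calls over all genes were 4037 higher and 3982 lower, 4369 and 4315, and 4494 and 4464, in place of 6604 and 2186, 7176 and 2265, and 7750 and 2170. The calls among the 8 genes were then 1 higher and 4 lower, 1 and 4, and 1 and 5, as Srebf2 was lost in all 3 comparisons, Insig1 gained in the early and Lss and Vldlr in the late groups. In a fit of only the 8 libraries compared, 3 of the 8 genes passed in UUO vehicle against sham vehicle (Fdps, Srebf2 and Hmgcs1). Without the libraries treated as standing apart, 6, 5 and 5 genes were called, the same numbers as with them. The shares of all genes called in either of these fits are not given here. Whether the smaller count of the former is particular to these genes thus cannot be told.

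**Figure D1:**
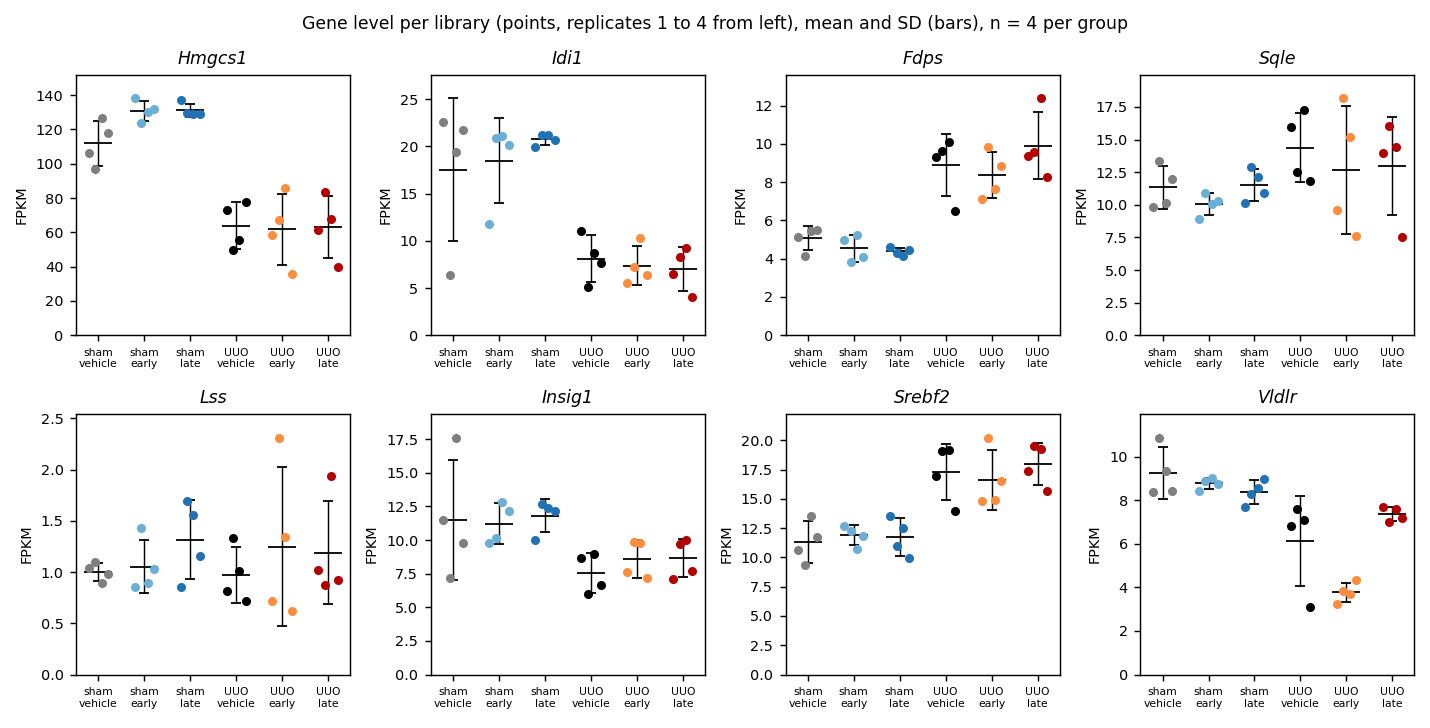
FPKM (y axis, from 0) of each of the 8 genes in each library (points), by group, with mean and SD (bars, n = 4 libraries). Hmgcs1 lay between 97.1 and 138 FPKM in the sham libraries and between 36.0 and 85.8 FPKM in the UUO libraries. Fdps and Srebf2 were higher in each UUO library than in any sham library in FPKM as deposited. With median-of-ratios scaling Srebf2 was not called in any comparison of UUO with sham, and its early difference was -0.0069.

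Hmgcs1 encodes the cytosolic HMG-CoA synthase, which joins acetyl-CoA and acetoacetyl-CoA on the way to mevalonate (GRCm38 chromosome 13, 119690379 to 119708260, plus strand, the coordinates of the deposited table). It was the most abundant of the 8 genes. In sham vehicle libraries 1 to 4 it measured 106, 97.1, 126 and 118 FPKM, and in UUO vehicle libraries 73.1, 49.7, 55.3 and 77.7 FPKM. In sham early it measured 138, 124, 130 and 132 FPKM and in UUO early 58.3, 67.2, 85.8 and 36.0 FPKM. In sham late it measured 137, 129, 129 and 129 FPKM and in UUO late 61.6, 83.7, 67.6 and 39.8 FPKM. No UUO library reached the lowest sham library. Hmgcs1 fell by 0.81 (SE 0.21, adjusted p = 0.00208) under vehicle, by 1.13 (SE 0.21, adjusted p = 7.26e-05) in the early groups and by 1.09 (SE 0.21, adjusted p = 9.89e-05) in the late groups, on the log2 scale. The UUO libraries were more spread than the sham libraries, with coefficients of variation of 21.2% to 33.5% against 2.93% to 11.5%.

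Within UUO early, the order of the libraries by Hmgcs1 was the order by the summed proximal tubule genes, which were at 195, 727, 907 and 1264 FPKM in replicates 4, 1, 2 and 3. The same held in UUO late, with sums of 306, 721, 864 and 1028 FPKM in replicates 4, 1, 3 and 2. In UUO vehicle it did not, since replicate 4, with the highest Hmgcs1, had the second lowest sum, 783 FPKM. Over all groups the proximal tubule sum was 2319 to 3062 FPKM in sham and 195 to 1264 FPKM in UUO libraries, none of the 10 genes was at 0 in any library, and 9, 10 and 10 of the 10 fell in the 3 comparisons. In whole tissue, fewer cells of a type and less RNA per cell cannot be told apart, and the part of this shift in the Hmgcs1 result was not tested. Macrophage genes moved the other way, 9 of 9 higher in each comparison, with sums of 38.0 to 62.6 FPKM in sham and 684 to 1550 FPKM in UUO libraries, and fibroblast and myofibroblast genes likewise, 9 of 9 higher, from 19.1 to 50.6 FPKM in sham to 256 to 974 FPKM in UUO libraries. Their part in any result here was not tested either.

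Idi1 and Fdps act next to each other and moved in opposite directions. Idi1 encodes the isomerase that converts isopentenyl to dimethylallyl pyrophosphate (chromosome 13, 8885501 to 8892451, plus strand), and Fdps the synthase that condenses these units to farnesyl pyrophosphate (chromosome 3, 89093588 to 89101959, minus strand). Idi1 measured 22.6, 6.41, 19.4 and 21.8 FPKM in sham vehicle and 11.0, 5.08, 8.73 and 7.65 FPKM in UUO vehicle. The low sham value is that of replicate 2, one of the libraries that stood apart, and it alone makes these groups overlap. In sham early Idi1 measured 11.8, 20.9, 21.1 and 20.1 FPKM and in UUO early 5.56, 7.24, 10.3 and 6.35 FPKM. In sham late it measured 19.9, 21.2, 21.2 and 20.7 FPKM and in UUO late 6.47, 8.26, 9.28 and 4.01 FPKM. It was thus lower in every UUO early and UUO late library than in any sham library of the same course. Idi1 fell by 0.93 (SE 0.31, adjusted p = 0.0113), 1.22 (adjusted p = 0.00140) and 1.49 (adjusted p = 0.000183) in the vehicle, early and late groups. The first of these had adjusted p = 0.0555 in the fit of only the groups compared.

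Fdps measured 5.15, 4.15, 5.47 and 5.49 FPKM in sham vehicle and 9.32, 9.65, 10.1 and 6.49 FPKM in UUO vehicle. It measured 5.00, 3.83, 5.25 and 4.07 FPKM in sham early and 7.15, 9.84, 7.67 and 8.83 FPKM in UUO early. It measured 4.60, 4.32, 4.15 and 4.45 FPKM in sham late and 9.35, 9.58, 12.4 and 8.28 FPKM in UUO late. The lowest of the 12 UUO libraries, 6.49 FPKM, lay above the highest of the 12 sham libraries, 5.49 FPKM. Fdps rose by 0.69 (SE 0.13, adjusted p = 0.000108), 0.76 (adjusted p = 3.26e-05) and 1.01 (adjusted p = 8.18e-07), each above the median of all genes. The size of the rise depended on the processing. Over 19 alternatives it was 0.353 to 0.823, 0.347 to 0.915 and 0.481 to 1.23. The highest adjusted p was 0.0317, 0.0321 and 0.00408, so each call held. The locus shares its strand with the annotated gene Gm43738, so reads of the overlap cannot be told apart.

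Sqle encodes squalene epoxidase, the oxygen-dependent step after squalene, and Lss lanosterol synthase, which closes the sterol rings. Neither passed the test in any of the 3 comparisons. Sqle ranged from 8.92 to 13.3 FPKM in the 12 sham libraries, median 10.6 FPKM, and from 7.52 to 18.2 FPKM in the 12 UUO libraries, median 14.2 FPKM. The lowest and highest UUO values were far apart: UUO early replicate 4 and UUO late replicate 4 were at 7.59 and 7.52 FPKM while UUO early replicate 2 was at 18.2 FPKM. The differences were 0.31 (95% interval -0.14 to 0.76), 0.23 (-0.22 to 0.69) and 0.12 (-0.33 to 0.57), intervals that hold changes in either direction. With libraries weighted by their spread the early difference was 0.49 (adjusted p = 0.00743). Lss ranged from 0.853 to 1.70 FPKM in sham and from 0.624 to 2.31 FPKM in UUO libraries, with differences of -0.04 (95% interval -0.43 to 0.36), 0.08 (-0.31 to 0.47) and -0.09 (-0.48 to 0.30). The last was -0.42 (adjusted p = 0.0424) with median-of-ratios scaling.

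**Figure D2:**
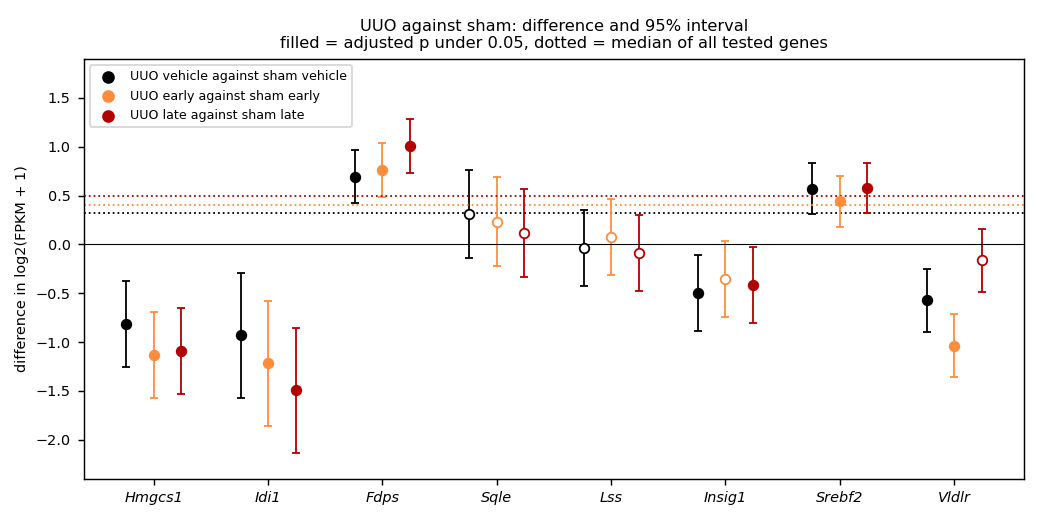
Difference in log2(FPKM + 1) between UUO and sham (y axis) for the 8 genes under vehicle, early and late courses, with 95% intervals from limma; filled points passed the adjusted threshold of 0.05, and dotted lines mark the medians of all tested genes at 0.32, 0.40 and 0.49. Hmgcs1 and Idi1 lay furthest below 0 and Fdps above it in each comparison.

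Insig1 encodes the sterol sensor that retains SCAP, and is itself switched on by SREBP (chromosome 5, 28071363 to 28078662, plus strand). In sham vehicle it measured 11.5, 7.16, 17.6 and 9.78 FPKM and in UUO vehicle 8.64, 5.96, 8.98 and 6.65 FPKM, groups that overlap. In sham early it measured 9.75, 10.2, 12.9 and 12.2 FPKM and in UUO early 7.61, 9.89, 9.78 and 7.18 FPKM, also overlapping. In sham late it measured 10.0, 12.7, 12.4 and 12.2 FPKM and in UUO late 7.14, 9.72, 10.0 and 7.74 FPKM, with the highest UUO library just below the lowest sham library. Insig1 fell by 0.50 (SE 0.19, adjusted p = 0.0239) under vehicle and by 0.42 (SE 0.19, adjusted p = 0.0493) in the late groups, and its early difference of -0.35 (adjusted p = 0.0993) did not pass. With the summed FPKM made equal neither call held, at -0.37 (adjusted p = 0.0752) and -0.18 (adjusted p = 0.354), while with median-of-ratios scaling the early difference passed as well, at -0.79 (adjusted p = 0.00179). Single libraries decided these calls too. Under vehicle the call is lost without sham vehicle replicate 3 (-0.29, adjusted p = 0.135), UUO vehicle replicate 2 (adjusted p = 0.0839) or UUO vehicle replicate 4 (adjusted p = 0.0616). In the late groups it is lost without any one of sham late replicates 2, 3 and 4 or UUO late replicates 1 and 4, with adjusted p of 0.0877 to 0.136.

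Srebf2 encodes the precursor of SREBP2 (chromosome 15, 82147266 to 82205376, plus strand), the factor that acts on the synthesis genes. It rose while Hmgcs1 and Idi1 fell, but with median-of-ratios scaling it passed in no comparison of UUO with sham. It measured 10.7, 9.32, 13.5 and 11.7 FPKM in sham vehicle and 17.0, 19.1, 19.2 and 14.0 FPKM in UUO vehicle. It measured 12.7, 12.3, 10.7 and 11.9 FPKM in sham early and 14.8, 20.2, 14.9 and 16.5 FPKM in UUO early, and 13.6, 11.0, 12.5 and 9.93 FPKM in sham late and 17.4, 19.5, 19.3 and 15.7 FPKM in UUO late. Every UUO library, from 13.99 FPKM, lay above every sham library, up to 13.57 FPKM, though by a small margin. The rise was 0.57 (SE 0.12, adjusted p = 0.000411), 0.44 (SE 0.12, adjusted p = 0.00330) and 0.58 (SE 0.12, adjusted p = 0.000293), close to the median gene in the early and late groups. With median-of-ratios scaling the differences were 0.21 (adjusted p = 0.159), -0.0069 (adjusted p = 0.965) and 0.0078 (adjusted p = 0.959), so the direction of Srebf2 depends on the scaling. RNA of Srebf2 does not show how much of the protein is cleaved. The microRNA gene Mir33 lies in the same locus on the same strand.

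Vldlr encodes the receptor that binds apolipoprotein E-rich and triglyceride-rich lipoproteins (chromosome 19, 27216484 to 27254231, plus strand). It measured 8.37, 10.9, 9.34 and 8.40 FPKM in sham vehicle and 6.80, 7.57, 7.09 and 3.08 FPKM in UUO vehicle. It measured 8.44, 8.87, 9.01 and 8.75 FPKM in sham early and 3.23, 3.83, 3.71 and 4.32 FPKM in UUO early. It measured 7.69, 8.28, 8.58 and 8.95 FPKM in sham late and 7.68, 7.01, 7.58 and 7.20 FPKM in UUO late. The UUO early libraries were the lowest group as a whole, and 1 UUO vehicle library, replicate 4, was lower still. Vldlr fell by 0.57 (SE 0.16, adjusted p = 0.00296) under vehicle and by 1.04 (SE 0.16, adjusted p = 5.71e-06) in the early groups, the former with adjusted p = 0.0537 in the fit of only the groups compared. Without UUO vehicle replicate 4 the fall under vehicle was smaller, at -0.32 (adjusted p = 0.00315). In the late groups the difference was -0.16 (SE 0.16, adjusted p = 0.348), with all 4 UUO late libraries below all 4 sham late libraries by a small margin, and exact two-sided permutation p = 0.0286. Its sign depended on the scaling, at -0.70 (adjusted p = 0.000371) with median-of-ratios scaling and 0.06 (adjusted p = 0.722) with equal sums. The share of all genes without overlap in the late groups is not given here. In limma 59% of all genes were higher and 16.5% lower there, so the lack of overlap cannot be read as particular to Vldlr.

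In UUO early against UUO late, Vldlr averaged 3.77 ± 0.448 FPKM and 7.36 ± 0.316 FPKM (SD, n = 4), with no overlap. The difference was -0.81 (SE 0.16, 95% interval -1.14 to -0.49), with adjusted p = 0.0724 in limma, which misses the threshold. The exact two-sided permutation test gave p = 0.0286, the smallest that 4 against 4 libraries allow. Over 19 alternatives the adjusted p ranged from 0.00316 with library weights to 0.152, and it was 0.0452 with the summed FPKM made equal. None of the 8 genes was called in this comparison, in which 0.0305% of all tested genes were. At unadjusted p under 0.05 in limma there was 1 of 8, Vldlr, and by exact permutation also 1. The shares of all genes passing these unadjusted rules are not given here, and the 0.0305% does not apply to them. Leaving out UUO early replicate 4 left the difference at -0.87 (adjusted p = 0.0760).

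Against UUO vehicle, Vldlr in UUO early differed by -0.53 (SE 0.16, adjusted p = 0.366 in limma), and the groups overlapped through UUO vehicle replicate 4. Without that library the difference was -0.78 (adjusted p = 0.000338 in limma). The library is named here because of its low Vldlr value, so this p-value follows a choice made on the values tested. In UUO late against UUO vehicle the difference was 0.29 (95% interval -0.04 to 0.61, adjusted p = 0.584), and 0.04 (adjusted p = 0.913) without UUO vehicle replicate 4. That library had a neutrophil sum of 110 FPKM, the other UUO vehicle libraries 23.3 to 59.1 FPKM; its part in the Vldlr value was not tested. The size of either course's difference from vehicle thus rests on 1 library.

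None of the 8 genes passed limma's adjusted test in any comparison of a course with vehicle. In UUO early against UUO vehicle 0 of 8 were called, against 0.0152% of all genes, with 1 at unadjusted p under 0.05 (Vldlr) and 0 by exact permutation. In UUO late against UUO vehicle 0 of 8 were called, against 0.137% of all genes, with 0 at unadjusted p under 0.05 and 0 by exact permutation. The intervals of Hmgcs1 were -0.53 to 0.35 and -0.48 to 0.40 in these comparisons, and those of Idi1 -0.75 to 0.53 and -0.84 to 0.44, so changes within these bounds could not be told from none. The interaction of course and surgery called 0 of 8 genes for the early course, against 0.00762% of all genes, and 0 for the late course, against 0.0305%. At unadjusted p under 0.05 the early interaction had 1 gene, Vldlr (-0.46, 95% interval -0.92 to -0.0047, adjusted p = 0.865 in limma), and the late interaction had 0. The exact permutation test was not run for the interactions. Shares of all genes at unadjusted p under 0.05 or by exact permutation are not given here for any of these comparisons.

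In the sham kidneys none of the 8 genes passed limma's adjusted test between courses, with wide intervals for some, such as -0.28 to 1.00 for Idi1 in sham late against sham vehicle. Against sham vehicle 0 of 8 were called in sham early, where 0.00762% of all genes were, with 0 at unadjusted p under 0.05 in limma and 0 by exact permutation. In sham late 0 of 8 were called against sham vehicle, where 1.42% of all genes were, with 0 at unadjusted p under 0.05 in limma and 1 by exact permutation. That gene was Hmgcs1, at 131 ± 3.85 FPKM in sham late and 112 ± 12.9 FPKM in sham vehicle (SD, n = 4), with no overlap and exact p = 0.0286, but with a limma difference of 0.23 (95% interval -0.21 to 0.68, adjusted p = 0.649). In sham early against sham late 0 of 8 were called, against 0.00762% of all genes, with 0 at unadjusted p under 0.05 in limma and 0 by exact permutation. Shares of all genes by the unadjusted rules are not given here either.

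In the synthesis pathway as a whole, more genes fell than rose after obstruction, while among all tested genes more rose. Of 21 listed genes, all tested, 5 rose and 9 fell in UUO vehicle against sham vehicle (23.8% and 42.9%, against 50.3% and 16.7% of all genes). In the early groups 2 rose and 10 fell (9.52% and 47.6%, against 54.7% and 17.3%), and in the late groups 3 rose and 10 fell (14.3% and 47.6%, against 59% and 16.5%). Without the 5 enzymes described above, 4 rose and 7 fell, 1 rose and 8 fell, and 2 rose and 8 fell, of 16 genes. The list was written with earlier results of these data known, so these 16 genes are not an independent check. The medians over the list were -0.22, -0.31 and -0.37. In all 3 comparisons 8 genes fell, among them Hmgcs1, Idi1, Acat2 (acetoacetyl-CoA thiolase), Mvd (mevalonate diphosphate decarboxylase), Nsdhl (a sterol dehydrogenase), Ebp (a sterol isomerase) and Tm7sf2 (a sterol reductase). The largest decrease of the 21 was in Cyp51, lanosterol demethylase, from 70.2 ± 16.7 to 21.2 ± 5.53 FPKM under vehicle, a fall of 1.69 (SE 0.23, adjusted p = 1.83e-06), with differences of -1.97 and -2.04 in the early and late groups.

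Fdps and Msmo1, a sterol methyl oxidase, were the 2 genes higher in all 3 comparisons, Msmo1 by 0.51, 0.55 and 0.49, although its late difference was -0.0048 with median-of-ratios scaling. Pmvk, phosphomevalonate kinase, was higher under vehicle and in the late groups by 0.31 and 0.46, and negative with that scaling in both. Fdft1, squalene synthase, rose under vehicle by 0.94 (adjusted p = 0.0175), a call that was lost with median-of-ratios scaling. Mvk, Dhcr7, Sqle and Lss passed in none of the 3 comparisons. Counts of higher genes moved with the scaling, to 1 in each comparison with median-of-ratios scaling, while lower genes then numbered 12, 12 and 15. Genes higher under vehicle numbered 3 without sham vehicle replicate 4 and 2 without UUO vehicle replicate 1 or 4, and in the early groups 4 without sham early replicate 3.

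**Figure D3:**
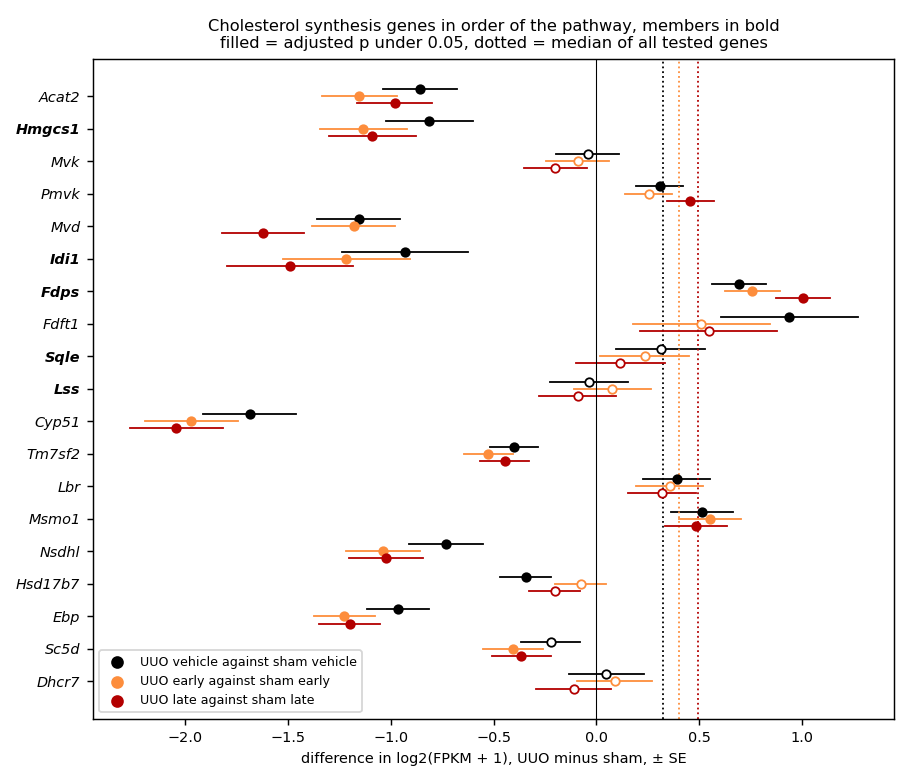
Difference in log2(FPKM + 1), UUO minus sham, with SE (x axis) for synthesis genes in order of the pathway from top to bottom, the 5 enzymes described above in bold; filled points passed the adjusted threshold of 0.05 and dotted lines mark the medians of all genes. Cyp51 lay furthest to the left in each comparison, and Fdps was right of the median of all genes in each.

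Among 13 listed genes of SREBP control, Srebf2 and Insig1 included, 5 rose and 3 fell under vehicle, 5 and 3 in the early groups and 5 and 4 in the late groups. Under vehicle this was 38.5% higher and 23.1% lower, where all genes had 50.3% and 16.7%. With median-of-ratios scaling the counts were 1 and 6, 2 and 6, and 0 and 7. Mbtps2, a protease that releases SREBP, rose by 0.49 under vehicle, from 1.23 to 2.13 FPKM, and Rnf139, a sterol-responsive ubiquitin ligase, by 0.37.

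Of 13 lipoprotein receptor genes tested, Vldlr included, 5 rose and 4 fell under vehicle, 6 and 4 in the early groups, and 6 and 3 in the late groups, in which Vldlr did not pass. Under vehicle this was 38.5% higher and 30.8% lower, where all genes had 50.3% and 16.7%. With median-of-ratios scaling the counts were 4 and 7, 5 and 6, and 4 and 5. Scarb1, the HDL receptor, rose from 1.33 to 4.31 FPKM (log2 1.19), Lrp1, a large endocytic receptor, from 1.69 to 9.32 FPKM (1.92), and Lsr, the lipolysis-stimulated receptor, from 24.0 to 54.8 FPKM (1.15), all under vehicle. Cd36, a fatty acid and scavenger receptor, fell from 103 to 23.3 FPKM (-2.13).

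Of 6 tested chaperones, adaptors and degraders of these receptors, 3 rose and 1 fell under vehicle, 3 and 2 in the early groups and 3 and 1 in the late groups. The shares under vehicle, 50% and 16.7%, were those of all genes, 50.3% and 16.7%. Lrpap1, the chaperone that keeps ligands off the receptors during folding, fell from 152 to 58.0 FPKM (log2 -1.37). Mylip, the ubiquitin ligase IDOL that degrades VLDLR, rose from 7.54 to 15.7 FPKM (0.97, adjusted p = 4.33e-06), and by 0.91 and 0.97 in the early and late groups.

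Genes of sterol efflux and of its regulators, 11 tested, rose in 5 cases and fell in 5 under vehicle, 5 and 5 in the early groups and 5 and 3 in the late groups. Under vehicle 45.5% were thus higher and 45.5% lower, against 50.3% and 16.7% of all genes. Apoe, a ligand of VLDLR, rose from 43.4 to 375 FPKM (log2 3.08), Abca1, a cholesterol exporter, from 1.97 to 12.3 FPKM (2.14), and Ch25h, which makes the SREBP-inhibiting 25-hydroxycholesterol, from 1.03 to 11.3 FPKM (2.61). Cyp7b1, which hydroxylates oxysterols, fell from 127 to 19.1 FPKM (-2.68). These are also genes of macrophages or of the tubule in part, and the marker sums given above moved with them; the part of that shift was not tested.

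Of 15 tested genes of sterol storage and transport, 8 rose and 3 fell under vehicle, 8 and 3 in the early groups and 9 and 2 in the late groups. These shares were near those of all genes, being 53.3% and 20% under vehicle against 50.3% and 16.7%. Npc2, a lysosomal cholesterol carrier, rose from 24.4 to 54.1 FPKM (log2 1.12) and Soat1, which esterifies cholesterol, from 2.34 to 5.15 FPKM (0.88). Of 13 genes of isoprenoid branches 4 rose and 7 fell, 4 and 6, and 5 and 7, and of 16 genes of fatty acid synthesis 4 and 6, 4 and 6, and 5 and 6. Under vehicle the isoprenoid list had 30.8% higher and 53.8% lower, and the fatty acid list 25% and 37.5%, against 50.3% and 16.7% of all genes. In these branches Acss2, which makes acetyl-CoA from acetate, fell by 1.54 under vehicle, while Ggps1, the geranylgeranyl diphosphate synthase, rose by 0.55.

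The deposited transcript values showed that totals were steadier than their split. For Hmgcs1, transcript Hmgcs1-202 led in all 4 sham early libraries, at 122, 122, 108 and 129 FPKM with Hmgcs1-201 at 65.2, 44.1, 67.7 and 47.8 FPKM. In all 4 sham late libraries Hmgcs1-201 led, at 190, 179, 180 and 179 FPKM, with Hmgcs1-202 at 3.52, 3.39, 2.59 and 3.32 FPKM. The gene value was nevertheless alike, at 131 FPKM in both group means. In sham vehicle and the UUO groups the leading transcript changed from library to library, so that over 24 libraries Hmgcs1-201 led in 11 and Hmgcs1-202 in 13. Fdps-201 and Fdps-203 likewise led in 13 and 11 libraries, and Sqle-201 and Sqle-202 in 19 and 5, all 5 of them sham libraries. Idi1-201 led in all 24 libraries, with at least 92.1% of the listed transcript level.

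Vldlr-207, of 7971 bases, was the leading Vldlr transcript in all 24 libraries. It measured 2.96, 3.90, 2.81 and 4.33 FPKM in UUO early and 8.35, 7.17, 8.64 and 6.02 FPKM in UUO late, without overlap. As it held 64.8% to 100% of the listed transcript level, this repeats the gene result. Vldlr-208 overlapped and went the other way, with means of 0.841 FPKM in UUO early and 0.363 FPKM in UUO late. Vldlr-202 was at 0 in all 4 UUO early and in 2 UUO late libraries. For Vldlr-207 the UUO vehicle libraries were as follows. Vldlr-207 measured 7.78, 8.84, 7.92 and 1.89 FPKM in them. In the low replicate 4 the listed transcripts made up 48.5% of the gene value, against 99.2% to 99.5% in the other 3 UUO vehicle libraries, and the rest came from transcripts not analysed here. For Lss the listed coding transcript made up a median of 8.85% of the gene value, from 0 to 75.5%, and an antisense gene, 4930483K19Rik, overlaps the locus.

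**Figure D4:**
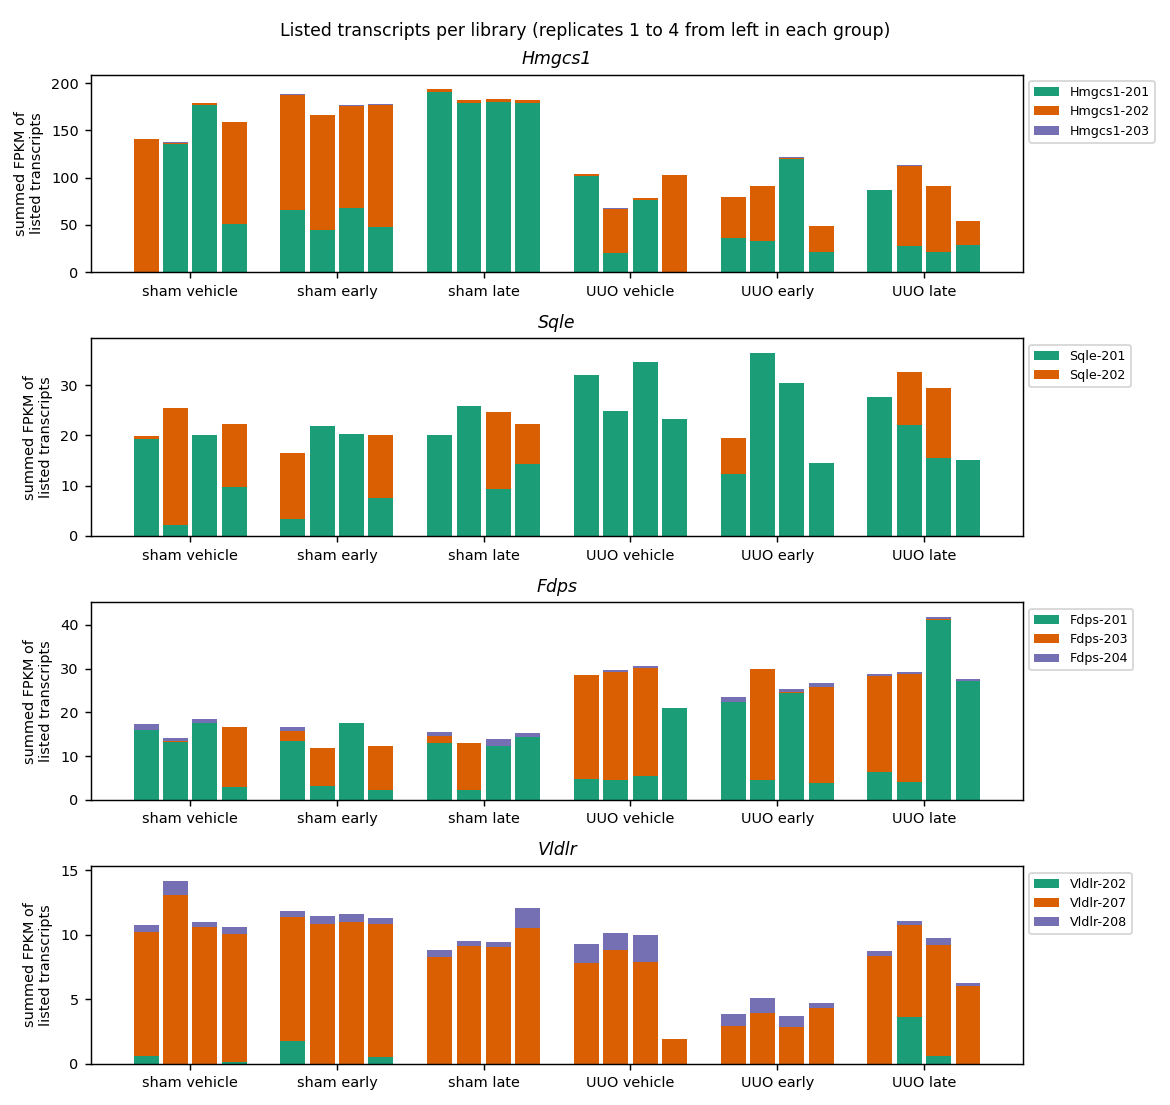
Summed FPKM of the listed transcripts (y axis, from 0, stacked by transcript) of Hmgcs1, Sqle, Fdps and Vldlr in each library, replicates 1 to 4 from left within each group. The colours swap between libraries for Hmgcs1, Sqle and Fdps, as a block between sham early and sham late for Hmgcs1, while Vldlr-207 led throughout and was low in UUO early and in UUO vehicle replicate 4.

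How the 8 genes varied together within groups was described by Pearson's r of log2(FPKM + 1) after subtracting group means, over 24 libraries that also share depth and tissue composition; no test was made. Of 28 pairs, r was highest for Idi1 and Insig1 (0.70, Spearman's rho 0.68, r of 0.52 without the libraries that stood apart). Fdps and Srebf2 followed (0.66, rho 0.65, 0.61 without them), then Hmgcs1 and Sqle (0.64, rho 0.42, 0.56 without them). Hmgcs1 and Vldlr had the lowest value, -0.40. The order changed without the libraries that stood apart: the highest pair was then Sqle and Idi1 (0.71, against 0.34 with them), before Hmgcs1 and Idi1 (0.64) and Fdps and Vldlr (0.64). Over 7217 candidate genes with a mean of at least 5 FPKM, those most like Hmgcs1 were Zmynd10 (r 0.96), Cryl1 (0.96) and Mcrip2 (0.95). For Idi1 they were Ggct (0.91), Cckar (0.88) and Cndp2 (0.87), for Sqle Lad1 (0.89), Cyp2c44 (0.89) and Hnf4a (0.88), and for Vldlr Etv6, Ap4b1 and Slc36a1 (each 0.89), of which Etv6 had a rho of 0.34.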

How the data were processed

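Per the labels' protocols, RNA was extracted from left kidneys with Trizol and 24 libraries were made with a stranded kit. The authors deposited FPKM values per gene and per transcript, and the submitters' processing notes name cutadapt, HISAT2, StringTie and build GRCm38, without versions. FPKM are not counts, so no counting interval was computed, and depth was estimated from the steps of the transcript values. The gene value divides by the exonic length of the whole locus: the gene FPKM of Fdps was 0.291 to 0.331 of the sum of its listed transcripts.

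Groups came from the labels. Genes with at least 1 FPKM in at least 4 libraries were tested on log2(FPKM + 1) with limma 3.58.1 in R 4.3.3 (1 mean per group, all 24 libraries, mean-variance trend, two-sided, Benjamini-Hochberg over 13127 genes), in 11 comparisons. A fold change on this scale understates changes of low genes. Exact permutation tests over 4 against 4 libraries are unadjusted. Of 14407 gene IDs, 14385 matched GENCODE M21 when versions were ignored. All 8 genes are named, every synthesis gene may be, and of the other lists up to 4 with the smallest p. The members and lists were chosen with earlier results of these data known. The fit was also run on simulated data with noise drawn independently for each gene, whereas these libraries share depth and tissue composition. The outcome is not given here, and no result rests on it. No per-sample column was left out. Some listed genes are counted but not reported by name here.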

Additional observations from a re-analysis of the deposited data

Results flagged for a closer look

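Across 48 gene and group combinations of 4 libraries, 3 held a library set apart by its gap to the next, where chance gives about 1 in 20. The count of 3 is close to what that rate gives over 48 combinations, so the 3 are listed without being read as unusual. Hmgcs1 in sham late replicate 1 was at 137 FPKM, above 129 FPKM in the other 3. Lss in UUO late replicate 3 was at 1.94 FPKM, where the others were at 0.877 to 1.02 FPKM, and its listed transcript made up 59.9% of the gene value against 3.90% to 9.98% in the others. Idi1 in sham early replicate 1 was at 11.8 FPKM, below 20.1 to 21.1 FPKM in the others, in a library whose adipocyte marker sum was 363 FPKM, the highest of all 24; its part in the Idi1 value was not tested.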

How the results depend on the processing

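Pseudocount, filter, scaling, trend, library weights, libraries in the fit and each library in turn were varied. The number of the 8 genes called became 3 in UUO vehicle against sham vehicle with only the groups compared, and stayed between 4 and 6 otherwise in the 3 comparisons of UUO with sham. It became 1 in UUO early against UUO late with equal sums, with library weights and by exact permutation, and 1 by exact permutation in sham late against sham vehicle. Leaving out 1 library gave 0 to 1 in UUO early against UUO vehicle. Apart from median-of-ratios scaling of UUO against sham, calls over all genes under these settings are not given here. The counts of the 8 genes can therefore not be set against them. Synthesis genes higher numbered 1 in each comparison with median-of-ratios scaling. They numbered 4 in the early groups with equal sums or library weights, and 5 in the late groups with equal sums or only the groups compared. Leaving out 1 library gave 2 to 5 under vehicle and 2 to 4 in the early groups. Of single genes, Srebf2 in the early groups turned to -0.0069 with median-of-ratios scaling, where the median gene moved from 0.40 to 0.01; other calls were lost in 17 cases and gained in 8. The 2 libraries that stood apart were left out together after seeing the data, which changed no call of the 8 genes and left 4, 2 and 3 synthesis genes higher.

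Replicate numbers did not meet the criterion for pairing, that every same-numbered pair correlates above 0.1: of 60 pairs 7 did (median r 0.0036), 3 of them between UUO early and UUO late (0.262, 0.219 and 0.436, the other pair 0.0353), and 6 of 24 libraries correlated best with their own number. With the replicate block 6, 5 and 5 genes were called in the UUO against sham comparisons, as without it, and Vldlr in UUO early against UUO late had adjusted p = 0.0838, against 0.0724 without. Depth limits Lss most.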
